A study of Mus musculus with 6 samples.

Results

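Genes of voltage-gated sodium channels, 8 chosen by symbol, were followed in the hippocampus of 2-week-old mice. They are 5 alpha subunit genes (Scn1a, Scn2a, Scn3a, Scn8a and Scn9a) and 3 beta subunit genes (Scn2b, Scn3b and Scn4b), 8 of the 36008 genes in the deposited gene table, and 60 of the 118783 transcripts measured belong to them. RNA-seq of polyadenylated RNA was available from 3 WT and 3 Prmt9 KO female mice on the B6J background. In the Prmt9 KO mice, exon 5 of Prmt9 had been deleted in the germline with CMV-Cre, so the knockout was of the whole body, and the WT mice were littermates of the same sex. Each sample was 1 mouse. PRMT9 is an arginine methyltransferase whose known substrate is the splicing factor SF3B2, and the comparison of the genotypes asks which RNAs change in level or splicing without it.

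A sodium channel consists of a large alpha subunit, which forms the pore and carries the voltage sensors in 4 domains, and of smaller beta subunits with a single membrane span, which modify gating and link the channel to adhesion proteins. In the rodent brain Scn3a (Nav1.3) is known as the alpha subunit of the immature brain, whereas Scn1a (Nav1.1) and Scn8a (Nav1.6) rise after birth. Several alpha subunit genes also carry a pair of alternative exons for the voltage sensor of the first domain, a neonatal and an adult form, of which only 1 enters a transcript.

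In GRCm38, Scn2a (chr2:65620771-65767447, forward), Scn3a (chr2:65457118-65567627, reverse), Scn1a (chr2:66270778-66440840, reverse) and Scn9a (chr2:66480080-66634962, reverse) lie close together. Scn8a is at chr15:100869858-101045938 on the forward strand. The beta subunit genes all lie on the forward strand of chromosome 9, Scn3b at chr9:40269217-40291618, Scn2b at chr9:45117782-45130070 and Scn4b at chr9:45138395-45154152.

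The estimated counts summed to 194098391 to 286771677 per mouse, and every gene of the family passed the default filter on low counts. Prmt9 itself was lower in 3 of 3 Prmt9 KO mice, at 4.40 ± 0.409 TPM against 13.99 ± 1.93 TPM in WT (SD, n = 3). Its log2 fold change was −1.71 ± 0.10 (SE), with an adjusted p of 0.0327 in edgeR's quasi-likelihood test. WT replicate 1 and Prmt9 KO replicate 1 stood apart from the other 4 mice on the first principal component, which held 67.4% of the variance of log2 CPM. Fold changes and the splicing events without overlap are therefore given with and without them. Neuronal genes were present in every mouse, with 299 to 555 TPM of Syt1, a synaptic vesicle protein, and 736 to 960 TPM of Slc17a7, the vesicular glutamate transporter of excitatory hippocampal neurons. In bulk tissue, fewer cells of a type and less RNA per cell cannot be told apart.

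The genes differed in level by 2 orders of magnitude. Levels between genes are given in TPM, which divides by transcript length. Scn3b was the highest member in 6 of 6 mice (107 to 158 TPM), and Scn9a, a channel best known from sensory neurons, the lowest (0.391 to 1.22 TPM). Scn4b, whose product is linked to resurgent current, came next above Scn9a in 6 of 6 mice (1.68 to 8.03 TPM). Scn8a, Scn2a and Scn2b formed the next group below Scn3b, with means over the 6 mice of 73.4, 63.4 and 71.8 TPM. Their order changed from mouse to mouse, so these neighbours did not differ beyond the spread. Scn1a and Scn3a followed, with means of 19.8 and 15.97 TPM. Scn1a was above Scn3a in replicates 2 and 3 of both genotypes and below it in replicate 1 of both.

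**Figure D1:**
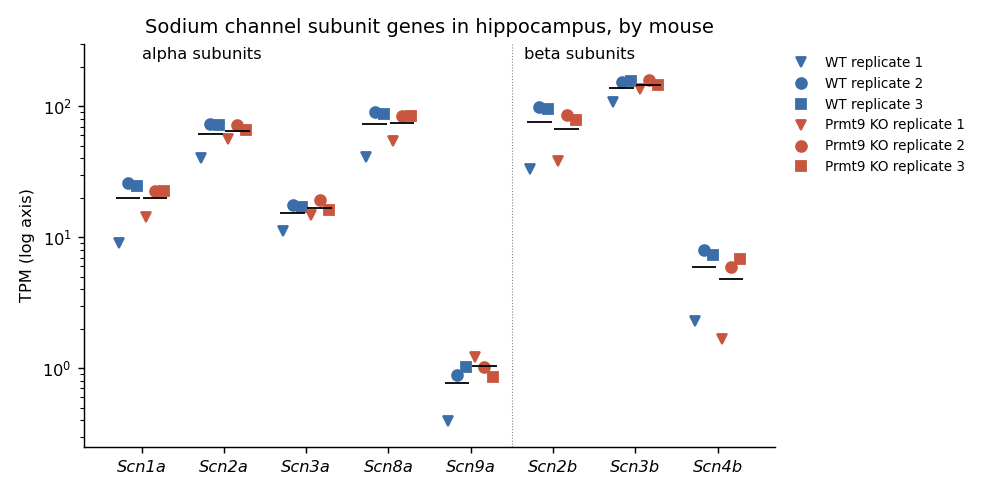
TPM (log axis) of the 8 sodium channel genes in each mouse, with a horizontal line at the mean of each genotype (n = 3), blue for WT and red for Prmt9 KO. Scn3b is the highest and Scn9a the lowest in every mouse, and the triangles of replicate 1 lie below the other mice of their genotype in both genotypes for every gene except Scn9a.

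No gene of the 8 was called different between WT and Prmt9 KO. The test was edgeR's quasi-likelihood test on gene counts, where a call needed over 1.5-fold and a Benjamini-Hochberg adjusted p under 0.01. It called 0 of the 8, with 0 at an unadjusted p below 0.05, and DESeq2 also called 0 of the 8. Prmt9 itself, at an adjusted p of 0.0327 by edgeR, missed the limit too, so 0 calls do not show equal levels. Over all 20335 genes tested the edgeR test called 0 (0%), with 251 at an unadjusted p below 0.05, and DESeq2 called 3 of its 28279 genes. The CPM values of the genotypes did not overlap for 0 of the 8 members, against 7.01% of all genes tested. The median log2 fold change of the 8 was 0.002, beside −0.01 over all genes, with 4 members above and 4 below 0.

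Among the alpha subunit genes, Scn8a, the main channel of the mature axon initial segment, had 40.7, 90.5 and 87.0 TPM in WT replicates 1, 2 and 3 and 54.0, 84.1 and 84.3 TPM in the Prmt9 KO replicates. Scn2a, which serves the young initial segment and unmyelinated axons of excitatory neurons, had 40.3, 73.2 and 72.5 TPM in WT and 56.8, 72.0 and 65.9 TPM in Prmt9 KO. For both genes replicate 1 was the lowest of its genotype and the genotypes overlapped. Their log2 fold changes were −0.03 ± 0.23 and 0.06 ± 0.18 (SE), each with an adjusted p of 1.0 by edgeR.

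Scn1a, strong in parvalbumin interneurons, had 9.06, 25.8 and 24.6 TPM in WT and 14.3, 22.7 and 22.6 TPM in Prmt9 KO. The log2 fold change was −0.09 ± 0.30 (SE) and carried an adjusted p of 1.0 in edgeR. The Prmt9 KO mice lay inside the WT range. Scn3a had 11.1, 17.5 and 17.0 TPM in WT and 14.7, 19.4 and 16.1 TPM in Prmt9 KO, with a log2 fold change of 0.04 ± 0.11 (SE). The deposited gene value of Scn3a also holds transcripts outside GENCODE M21, and the matched ones made up 68.0% to 85.7% of it, so its counts in the test cover this share. With TPM scaled by length, which uses the whole gene value, its log2 fold change was 0.08 ± 0.13 (SE).

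Scn9a had 0.391, 0.888 and 1.03 TPM in WT and 1.22, 1.02 and 0.861 TPM in Prmt9 KO. Its log2 fold change of 0.44 ± 0.30 (SE) was the largest of the 8 genes and had an adjusted p of 1.0 by edgeR. Prmt9 KO replicate 1 had the highest and WT replicate 1 the lowest value, and without these 2 mice the log2 fold change was −0.03.

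Of the beta subunit genes, Scn3b, known from the developing brain, had the least spread of the 8 genes between mice, with 107, 154 and 156 TPM in WT and 135, 158 and 147 TPM in Prmt9 KO (log2 fold change 0.03 ± 0.09, SE). Scn2b, whose product is bound to alpha subunits by a disulfide bond, had 33.2, 99.3 and 95.2 TPM in WT and 38.2, 85.9 and 79.2 TPM in Prmt9 KO. Scn4b had 2.27, 8.03 and 7.34 TPM in WT and 1.68, 5.97 and 6.78 TPM in Prmt9 KO. In both genes replicate 1 was far below the other mice of its genotype, and the groups overlapped. Their log2 fold changes were −0.20 ± 0.41 and −0.33 ± 0.56 (SE), each with an adjusted p of 1.0 by edgeR. Between mice of equal number, the log2 ratio of Scn4b TPM was −0.44, −0.43 and −0.11, lower in Prmt9 KO in 3 of 3. With the replicate number as a block, edgeR gave Scn4b a log2 fold change of −0.40 ± 0.12 (SE), an unadjusted p of 0.0183 and an adjusted p of 0.791, and Scn2b an unadjusted p of 0.0744 and an adjusted p of 0.791.

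The standard errors shrank without the 2 mice numbered 1. Scn1a then had a log2 fold change of −0.19 ± 0.04 (SE), Scn2b of −0.24 ± 0.05 and Scn4b of −0.27 ± 0.07. These 3 genes reached an unadjusted p of 0.00308, 0.00372 and 0.0116 in edgeR's test, and their adjusted p-values were 0.144, 0.147 and 0.192. In TPM, the mean of Prmt9 KO replicates 2 and 3 was 0.899, 0.849 and 0.830 times that of WT replicates 2 and 3 for these genes. Scn8a was at −0.09 ± 0.04. None of the 8 was called, and 3360 of all 20498 genes had an unadjusted p below 0.05 in this fit of 4 mice.

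**Figure D2:**
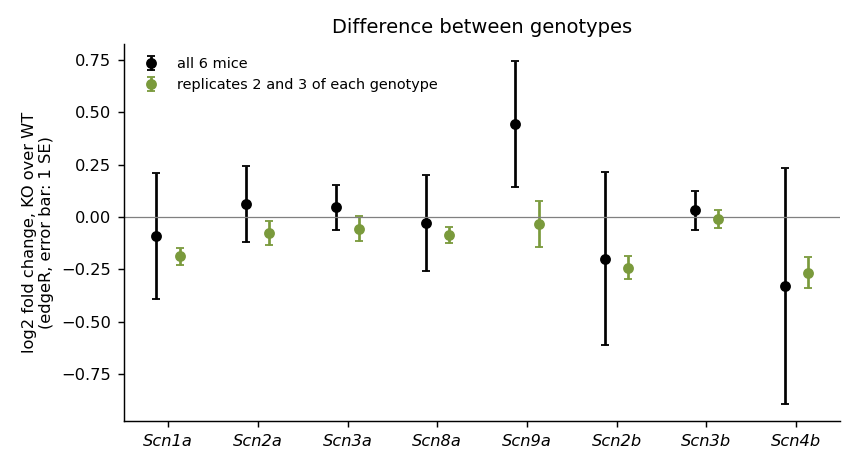
Log2 fold change of Prmt9 KO over WT for each gene from edgeR with all 6 mice (black) and with replicates 2 and 3 of each genotype (green). Error bars are 1 SE. The values of all 6 mice run from −0.33 for Scn4b to 0.44 for Scn9a with SEs of 0.09 to 0.56, and the green values run from −0.27 to −0.01.

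The shares of the alpha subunit genes overlapped between the genotypes. Scn8a held 42.2% ± 1.86 (SD, n = 3) of the alpha subunit TPM in WT and 41.6% ± 3.12 in Prmt9 KO. Scn2a held 36.9% ± 2.41 and 37.0% ± 2.89, Scn1a 11.2% ± 1.95 and 11.1% ± 0.912, and Scn9a under 1% in every mouse. Scn3a, the immature form, had a share of 10.9%, 8.42% and 8.42% in WT replicates 1, 2 and 3 and of 10.4%, 9.72% and 8.50% in Prmt9 KO. The difference in its mean was 0.296 percentage points (exact permutation test, two-sided, p = 0.8, where 3 mice against 3 cannot go below 0.1). Its sign depended on single mice and on the transcripts used.

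Several ratios between genes were lowest in the mice numbered 1. There were 0.815, 1.47 and 1.44 TPM of Scn1a per TPM of Scn3a in WT replicates 1, 2 and 3, and 0.969, 1.17 and 1.40 in the Prmt9 KO replicates (exact permutation test, p = 0.8). Replicate 1 was the lowest in both genotypes. For Scn8a over Scn3a the ratios were 3.67, 5.17 and 5.11 in WT and 3.66, 4.34 and 5.23 in Prmt9 KO (exact permutation test, p = 0.9). Within the beta subunits, Scn2b stood at 0.309, 0.647 and 0.612 of Scn3b in WT and at 0.282, 0.544 and 0.539 in Prmt9 KO (exact permutation test, p = 0.5). Here too both mice numbered 1 lay below all other mice, and within each replicate number the ratio was lower in Prmt9 KO. The ratio of the summed beta to the summed alpha subunit TPM was 1.4071, 1.2548 and 1.2776 in WT and 1.2410, 1.2541 and 1.2269 in Prmt9 KO. Among these ratios and shares of subunit genes, it alone did not overlap between the genotypes (exact permutation test, p = 0.1, the smallest possible), and replicates 2 of the genotypes nearly met.

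**Figure D3:**
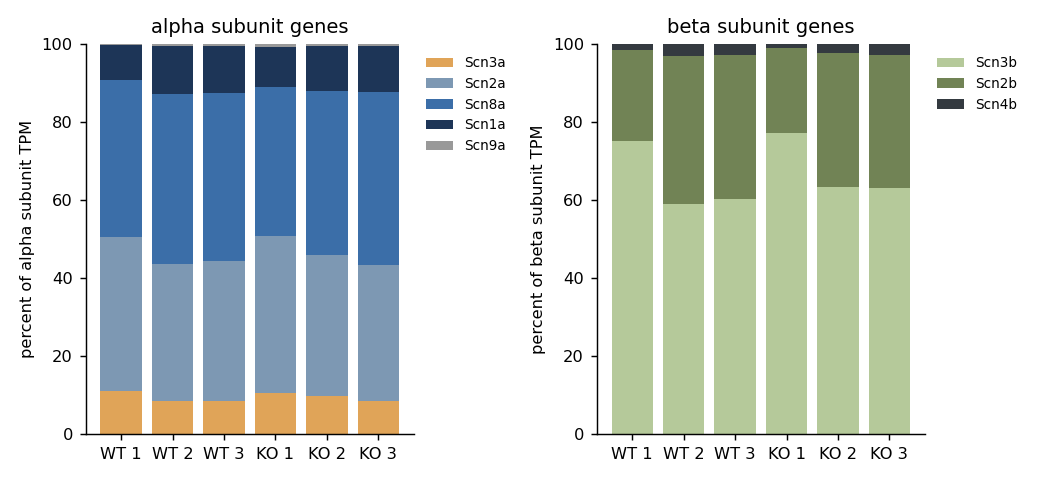
Stacked bars with the percent of alpha subunit TPM (left) and of beta subunit TPM (right) held by each gene in each mouse (WT 1 to 3, Prmt9 KO 1 to 3). Scn3a takes 10.9% and 10.4% of the alpha subunit TPM in the mice numbered 1 and 8.42% to 9.72% in the others, and Scn3b takes 75.2% and 77.2% of the beta subunit TPM in the mice numbered 1 and 58.8% to 63.2% in the others.

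The members themselves differed in how far the mice numbered 1 lay from the others. In WT, replicate 1 had 0.296 times the mean TPM of replicates 2 and 3 for Scn4b, 0.342 times for Scn2b, 0.360 times for Scn1a and 0.459 times for Scn8a. Scn2a was at 0.553 times, Scn3a at 0.644 times and Scn3b at 0.695 times. These 7 genes had the same order in Prmt9 KO, from 0.263 times for Scn4b and 0.462 times for Scn2b up to 0.830 times for Scn3a and 0.887 times for Scn3b. Over all 14188 genes with at least 1 TPM in every mouse, the median log2 ratio was −0.34 in WT and −0.11 in Prmt9 KO. Scn4b was thus among the lowest genes, since 1.13% of these genes had a ratio as low in WT and 0.423% in Prmt9 KO, and for Scn2b the shares were 2.07% and 2.96%. For Scn3b they were 37.5% and 44.5%. CPM is not divided by transcript length, and for Scn3a it covers the transcripts matched to GENCODE M21 only. Scn3a had 46.9, 53.3 and 51.7 CPM in WT and 56.0, 53.5 and 47.3 CPM in Prmt9 KO, so replicate 1 was not low in Prmt9 KO. In TPM, its leading matched transcript Scn3a-202 had 10.7, 11.1 and 9.97 in Prmt9 KO, where replicate 1 was not the lowest either. The transcripts covered and the scale thus both differ between the CPM and the gene TPM of Scn3a. Scn2b had 99.2, 240.9 and 229 CPM in WT and 99.5, 208 and 188 CPM in Prmt9 KO, which kept the gap.

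Other measures moved with the same 2 mice. The 7 markers of the oligodendrocyte lineage, 5 of them lower in both mice numbered 1, summed to 1904 TPM in WT replicate 1 against 10222 and 8903 TPM in the other WT mice, and to 1014 TPM in Prmt9 KO replicate 1 against 7122 and 9945 TPM. All 5 markers of immature neurons were higher in both mice numbered 1 than in the other mice of the genotype, with sums of 95.2 and 93.2 TPM against 56.9 to 63.6 TPM. Of the 6 markers of excitatory hippocampal neurons, 4 were lower and 0 higher in both mice numbered 1. Their sum was 0.615 times that of the other mice in WT and 0.650 times in Prmt9 KO. The summed TPM of the 4 markers of choroid plexus and ependyma, most of it Ttr, moved in opposite directions. It was at 5.56 times that of the other mice in WT replicate 1 and at 0.307 times in Prmt9 KO replicate 1. Not every marker followed the sum. In WT replicates 1, 2 and 3, Kl had 7.44, 6.76 and 11.9 TPM and Foxj1 had 8.90, 8.73 and 8.15 TPM. Of the 7 markers of inhibitory neurons, 4 were lower and 1 was higher in both mice numbered 1, and their sum in these mice was 0.855 times that of the other mice in WT and 0.996 times in Prmt9 KO. Among them Pvalb, a marker of interneurons rich in Scn1a, had 29.4 and 13.3 TPM in the mice numbered 1 and 61.3 to 66.1 TPM in the others, whereas Sst, a marker of other interneurons, had 653.5 and 760.3 TPM against 637.6 to 657.6 TPM. Transcripts longer than 5000 bases took 19.5% and 22.0% of the counts in the mice numbered 1 and 25.3% to 25.8% in the others. Their part in the sodium channel values was not tested.

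**Figure D4:**
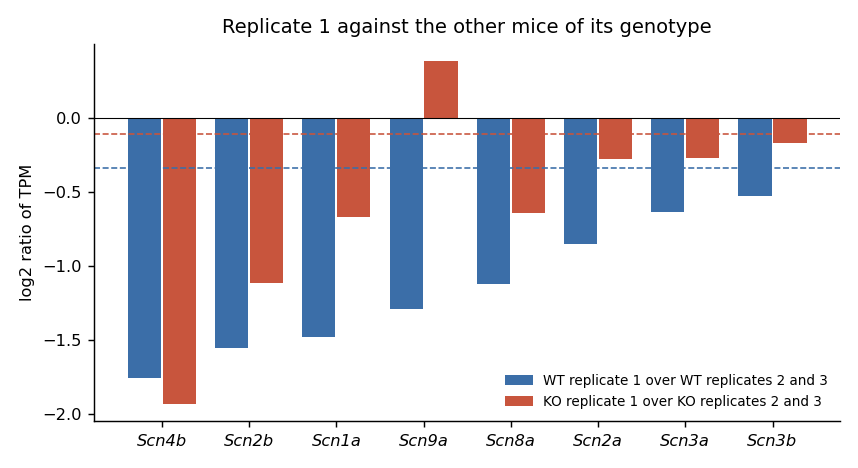
Log2 ratio of TPM of replicate 1 to the mean of replicates 2 and 3 of its genotype for each gene (blue bars WT, red bars Prmt9 KO), with the median over 14188 genes as a dashed line in the same colour. Scn4b (−1.76 and −1.93) and Scn2b (−1.55 and −1.11) are the lowest and Scn3b (−0.52 and −0.17) lies closest to the medians of −0.34 and −0.11, while Scn9a differs in sign between the genotypes.

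GENCODE M21 holds both forms for Scn2a, Scn3a, Scn8a and Scn9a, and in each pair the exon nearer the 5′ end of the gene was taken as the neonatal form. Every form has 92 bases. The adult forms of Scn8a and Scn2a are shown (GRCm38, 5′ to 3′ on the gene's strand) because the shares below set the transcripts that hold them against those with the neonatal form. Capitals mark the bases at which the neonatal form of the same gene differs.
Scn8a adult, chr15:100959603-100959694, forward: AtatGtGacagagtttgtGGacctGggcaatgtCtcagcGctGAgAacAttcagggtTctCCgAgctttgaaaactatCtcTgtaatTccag
Scn2a adult, chr2:65682690-65682781, forward: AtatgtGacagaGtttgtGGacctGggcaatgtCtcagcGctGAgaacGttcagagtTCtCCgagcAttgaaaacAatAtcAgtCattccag

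The 2 forms of a gene differed at 20 bases in Scn2a, 21 in Scn3a, 19 in Scn8a and 22 in Scn9a. Most of these changes are silent, since 1 of 30 whole codons codes for another residue in Scn2a and Scn3a and 2 of 30 in Scn8a and Scn9a. The same form was closer between genes than the 2 forms within a gene. The neonatal exons of Scn2a and Scn9a differ at 1 base, and the adult exons of Scn2a and Scn3a (chr2:65525695-65525786) are identical over all 92 bases. The paper reports reads longer than this exon, so a whole read also covers bases outside it. GENCODE M21 lists a single form for Scn1a, at chr2:66332207-66332298 on the reverse strand, which is shown for comparison in lower case.
Scn1a: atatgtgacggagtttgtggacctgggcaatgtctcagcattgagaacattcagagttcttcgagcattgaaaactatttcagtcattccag
It differs at 5 to 9 bases from the adult forms of the other 4 genes and at 20 to 23 bases from their neonatal forms.

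Scn8a was the only gene of the 4 whose neonatal share stood apart between the genotypes. The share, the TPM of 7 transcripts with the neonatal exon over that of these and 3 with the adult exon, was 0.120, 0.142 and 0.167 in WT replicates 1, 2 and 3 and 0.223, 0.201 and 0.190 in the Prmt9 KO replicates. All 3 Prmt9 KO mice lay above all 3 WT mice, and the difference of 0.0617 had the smallest p this design can give (exact permutation test, two-sided, p = 0.1). Taken by replicate number, the differences were 0.103, 0.0597 and 0.0226 (exact sign-flip test, p = 0.25). Leaving out each mouse in turn kept the difference between 0.0501 and 0.0738. These transcripts summed to 34.1 to 74.7 TPM per mouse.

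As a splicing event with the same flanking splice sites in both forms, the neonatal exon of Scn8a had a percent spliced in (PSI, here as a fraction) of 0.0875, 0.0907 and 0.115 in WT and of 0.190, 0.143 and 0.132 in Prmt9 KO. Its log2 ratio of including to excluding TPM was higher by 0.74 ± 0.26 (SE) in Prmt9 KO, with an unadjusted p of 0.0280 and an adjusted p of 1.0 in limma. The event was therefore not called. Without replicate 1 of both genotypes the PSI difference of 0.0572 fell to 0.0347, and without Prmt9 KO replicate 1 alone to 0.0398, both under the limit of 0.05 set for a call. The genotypes did not overlap and had a PSI difference of at least 0.05 in 2 of the 8 sodium channel events tested, against 5.61% of all 15763 events. Without the limit on the difference, the same 2 of 8 and 11.1% of all events did not overlap. Limma called 0 of the 8 and 0 of all events (0%), with 1 of the 8 and 527 of all at an unadjusted p below 0.05. The paper, which used reads per splice junction, reported altered events in many genes at the same limits. The 0 calls here therefore do not show unchanged splicing.

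Of the 7 neonatal transcripts of Scn8a, the protein-coding Scn8a-201 had the highest mean, with 2.74, 5.59 and 7.33 TPM in WT and 8.02, 8.82 and 8.01 TPM in Prmt9 KO. It was the only 1 of the 49 sodium channel transcripts tested whose TPM did not overlap between genotypes, against 7.5% of all 75682 transcripts tested. Its log2 fold change was 0.66 ± 0.25 (SE), with an unadjusted p of 0.0356 and an adjusted p of 1.0 in edgeR's test. Without replicate 1 of both genotypes it was 0.39 ± 0.15 (SE), and without WT replicate 3 it was 0.91 ± 0.22. EdgeR called 0 of the 49 transcripts, as it did over all transcripts (0%), where 1215 had an unadjusted p below 0.05. DESeq2 called 110 of its 99701 transcripts and 0 of those of the sodium channel genes. Scn8a-201 differs from Scn8a-205, the leading transcript with the adult exon, by this exon and by a further first exon of 61 bases at chr15:100870683-100870743, so its estimate rests on reads from both places. Scn8a-205 made up 0.672 ± 0.0192 (SD, n = 3) of the gene's TPM in WT mice and 0.631 ± 0.0078 in Prmt9 KO, and Scn8a-201 0.0711 ± 0.0118 and 0.116 ± 0.0285. The short neonatal transcript Scn8a-210 had 1.21, 3.68 and 3.48 TPM in WT and 1.81, 4.54 and 4.34 TPM in Prmt9 KO, and its genotypes overlapped.

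In Scn2a, the neonatal form took most of the TPM assigned to either form in both genotypes. Its share was 0.824, 0.719 and 0.718 in WT and 0.856, 0.728 and 0.759 in Prmt9 KO (exact permutation test, p = 0.5). By replicate number the differences were 0.0316, 0.0083 and 0.0409, higher in Prmt9 KO in 3 of 3 (exact sign-flip test, p = 0.25, the smallest that 3 pairs can give). Replicate 1 was the highest in both genotypes. This share rests on few long transcripts. Scn2a-205, which holds the adult exon, also lacks the first exon of Scn2a-201 and has a 50-base exon of its own. Its last exon has 1422 bases against 3814 in Scn2a-201. The division of reads between the forms therefore also rests on reads from these places. When computed from estimated counts in place of TPM, the difference of 0.0269 became 0.00018. The log2 ratio of including to excluding counts was then −0.14. Scn2a-202, which lacks the first exon of Scn2a-201 and is otherwise made of the same exons, had 21.9, 11.04 and 8.99 TPM in WT and 25.5, 10.8 and 14.1 TPM in Prmt9 KO, and so was highest in the mice numbered 1. Scn2a-201 was lowest there, with 7.66, 36.8 and 38.7 TPM in WT and 18.7, 37.1 and 30.9 TPM in Prmt9 KO. Scn2a-205, with the adult exon, had 1.51, 18.1 and 18.7 TPM in WT and 7.45, 17.9 and 13.2 TPM in Prmt9 KO.

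In Scn3a, the adult form led. The neonatal share was 0.153, 0.0853 and 0.0586 in WT and 0.0684, 0.0987 and 0.0736 in Prmt9 KO (exact permutation test, p = 0.7), and it stands on 1 transcript of 365 bases, Scn3a-203. It covers the matched transcripts only, and the exon content of the rest of the gene's TPM, 68.0% to 85.7% of which was matched, was not analysed here, so the share in the whole gene may differ. When computed from estimated counts, the difference of −0.0188 became −0.0004. Scn3a-202 made up 0.852 ± 0.0424 (SD, n = 3) of the matched TPM in WT mice and 0.865 ± 0.020 in Prmt9 KO. For Scn9a the neonatal share was 0.834 to 1 in WT and 0.889 to 1 in Prmt9 KO (exact permutation test, p = 0.7), from 0.371 to 1.08 TPM, and its event was under the limit of 1 TPM for a test. In Prmt9 KO replicate 1, the mouse with the most Scn9a, Scn9a-202 had 0.758 TPM, against at most 0.0199 TPM in any other.

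**Figure D5:**
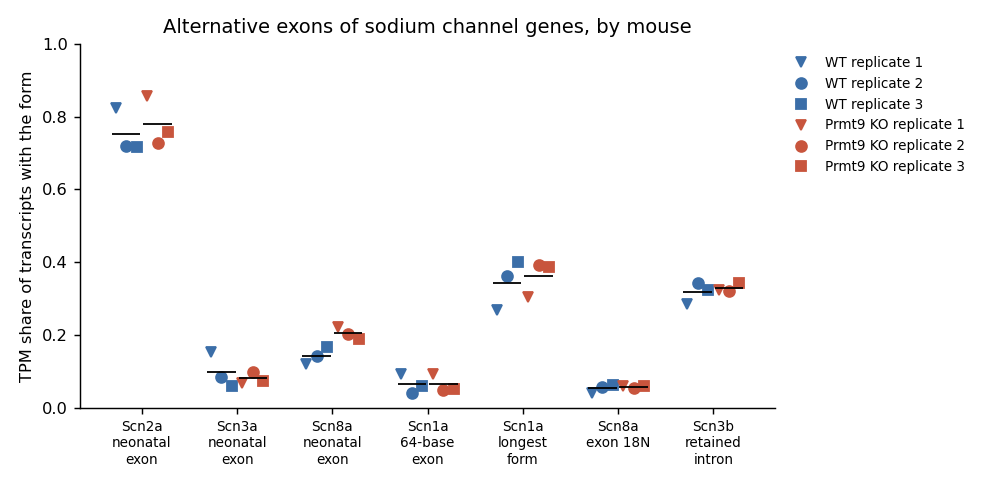
TPM share of the transcripts with the named form in each mouse, with a line at the mean of each genotype (n = 3), blue for WT and red for Prmt9 KO. The neonatal exon of Scn8a is at 0.120 to 0.167 in WT and 0.190 to 0.223 in Prmt9 KO without overlap, and the other 6 forms overlap between the genotypes.

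Scn8a also carries a pair of exons for the third domain, known as 18N and 18A. They are shown because 18N ends the reading frame early. Capitals mark its first in-frame stop codon, the 10th codon counted from the start of the exon, and 18A has none.
Scn8a 18N, chr15:101023839-101023906, forward: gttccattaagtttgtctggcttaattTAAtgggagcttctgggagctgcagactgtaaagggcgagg
Scn8a 18A, chr15:101024261-101024383, forward: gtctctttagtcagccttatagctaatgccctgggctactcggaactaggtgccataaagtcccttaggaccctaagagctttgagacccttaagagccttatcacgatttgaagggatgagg
The PSI of 18N, from the 903-base transcript Scn8a-209, was 0.040, 0.058 and 0.063 in WT and 0.060, 0.053 and 0.059 in Prmt9 KO (limma, adjusted p = 1.0), so the genotypes overlapped.

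Scn1a has a 64-base exon that is known as a poison exon, because transcripts with it are degraded by nonsense-mediated decay. It is shown because it is annotated in 1 transcript of that class, Scn1a-208, and because its length is no multiple of 3, so it shifts the reading frame.
Scn1a 64-base exon, chr2:66293832-66293895, reverse: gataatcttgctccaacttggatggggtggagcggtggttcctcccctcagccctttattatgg
Its PSI was 0.093, 0.042 and 0.060 in WT and 0.093, 0.049 and 0.052 in Prmt9 KO, with means of 0.0647 and 0.0648 (limma, adjusted p = 1.0). Replicate 1 was the highest mouse of both genotypes. The other event without overlap was a 271-base exon at chr2:66277562-66277832, which only Scn1a-207 skips, with a PSI of 1.0, 0.862 and 0.857 in WT and 0.845, 0.817 and 0.843 in Prmt9 KO. Its difference of −0.0713 (limma, adjusted p = 1.0) shrank to −0.0245 without WT replicate 1, where Scn1a-207 was at 0 TPM, and to −0.0296 without replicate 1 of both genotypes. The longest of 3 forms of an earlier exon, with 381 bases in Scn1a-203 against 348 bases, had a PSI of 0.268, 0.362 and 0.401 in WT and 0.305, 0.393 and 0.388 in Prmt9 KO, again lowest in replicate 1.

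Relative use of transcripts was tested per gene with edgeR's diffSpliceDGE and the Simes test. It called 0 of the 7 members with several transcripts, at an adjusted p below 0.01, and 23 of all 13561 genes (0.17%). None of the 7 had an unadjusted p below 0.05, and limma's diffSplice also called 0 of them. Scn4b has 1 transcript and was not tested. Scn8a came nearest to a call without replicate 1 of both genotypes, with an adjusted p of 0.0798, where 249 of 13667 genes were called. Over the other alternatives its adjusted p ran from 0.154 to 1.0.

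Of the beta subunit genes, Scn3b and Scn2b have several transcripts. Scn3b-203 retains an intron of 90 bases at chr9:40288454-40288543 within its last exon, and its PSI was 0.286, 0.342 and 0.324 in WT and 0.324, 0.321 and 0.343 in Prmt9 KO (limma, adjusted p = 1.0). Scn3b-201, the spliced form, made up 0.520 ± 0.0487 (SD, n = 3) of the gene's TPM in WT mice and 0.521 ± 0.033 in Prmt9 KO. Scn2b-202 held 0.897 ± 0.172 and 0.920 ± 0.074 of Scn2b, and the rest was Scn2b-201, which splices an intron inside the last exon of Scn2b-202. Scn2b-201 had 10.1, 0.0301 and 0.707 TPM in WT and 6.22, 1.98 and 4.24 TPM in Prmt9 KO, highest in replicate 1 of both genotypes.

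Other genes of sodium conductance were not called either. All 7 further channel genes were tested by edgeR, 0 were called and 1 had an unadjusted p below 0.05. Among them Nalcn, the sodium leak channel, had 14.9 to 27.0 TPM. The gene below 0.05 was Scn4a, the channel of skeletal muscle, at 0.0270 to 0.108 TPM (unadjusted p = 0.0409, adjusted p = 1.0, edgeR). Its CPM was lower in all 3 Prmt9 KO mice, whereas its TPM overlapped and was highest in Prmt9 KO replicate 3. The CPM of Scn7a did not overlap either, and was higher in Prmt9 KO, whereas its TPM of 0.436 to 0.685 overlapped. Its log2 fold change was 0.11 ± 0.14 (SE), with an unadjusted p of 0.468 by edgeR. Of the 7 genes, 1 higher and 1 lower in Prmt9 KO thus did not overlap in CPM, against 7.01% of all genes tested.

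Partners of the channel in trafficking and at the axon initial segment were 35 genes. EdgeR tested 35, called 0 and gave 0 an unadjusted p below 0.05, with 15 above and 20 below 0 and a median log2 fold change of −0.02. Calm2 (2255 to 3031 TPM) and Calm3 (1327 to 1472 TPM), which encode calmodulin, a protein that binds the tail of the alpha subunit, were the most abundant. In 23 of the 35 genes replicate 1 was the lowest mouse in both genotypes, and in 5 the highest. Of 15 splicing regulators, 14 were found in the gene table and tested, 0 were called and 0 had an unadjusted p below 0.05, with a median log2 fold change of 0.0048. Celf4 (147 to 299 TPM), Rbfox1 (91.1 to 200.5 TPM) and Rbfox3 (108 to 171 TPM), RNA-binding proteins of neurons, were the most abundant, and 10 of the 14 were lowest in replicate 1 of both genotypes.

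Across the 6 mice, the genes most like Scn1a in log2 CPM were Ank1, Larp1 and Wdfy3, with Pearson's r of 0.999 each, and within the family Scn8a (0.997) and Scn2b (0.978). Scn3a was most like Cadps (0.995), Rtn3 (0.992) and Eps8 (0.991), and within the family Scn3b (0.961), whereas its r with Scn1a was 0.239. The 6 points share the gap between the mice numbered 1 and the others, so these values describe that gap and carry no test.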

How the data were processed

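RNA of 3 WT and 3 Prmt9 KO hippocampi was measured by RNA-seq. The authors deposited kallisto's estimated counts and TPM for each transcript of a GRCm38 annotation and a table of TPM summed per gene (submitters' processing notes: kallisto 0.46.0 and STAR 2.7.1a). Of 118783 transcripts, 116710 matched GENCODE M21 by ID, and the other 2073 held at most 0.70% of the counts. The gene and transcript members, gene lists and tests were chosen with earlier results of these data known.

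Levels and shares use TPM. Estimated counts were summed per gene, rounded and tested with edgeR 4.0.16 in R 4.3.3 (quasi-likelihood, TMM, default filter on low counts, genotype as the only term), over all genes or transcripts. The SE given with edgeR's fold changes was derived from the test, as the absolute log2 fold change divided by the square root of the F statistic. Splicing events were built from annotated exons, with PSI as including over including plus excluding TPM, and tested with limma 3.58.1 on the log2 ratio after adding 0.1 TPM, for events whose summed TPM reached 1 in each of the 6 mice, provided that 1 genotype or both had a mean PSI of 0.05 to 0.95. No reads per splice junction were used, so an event's value depends on how kallisto divided reads between whole transcripts. Shares were compared by exact permutation of 3 mice against 3. Each sample is 1 mouse. Exon sequences were read from the GENCODE M21 transcripts. Scripts were tested on simulated data. DESeq2 1.42.0 was an alternative.

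Transcripts were named when their mean share was at least 0.05 in a genotype or when they had at least 1 TPM without overlap between genotypes. Events were named when mutually exclusive or not overlapping with a PSI difference of at least 0.05, and further events of Scn1a and Scn3b were chosen after their values were seen. Of each list of other genes, the 3 most abundant and those with an unadjusted p below 0.01 were named, apart from some genes that are not reported here, and Scn1a and Scn3a were given their 3 most correlated genes. Scn4a, Scn7a and single markers were chosen after their values were seen.

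Replicate numbers occur in both genotypes of the labels. Same-numbered mice deviated together from their genotype means of log2 CPM, with correlations of 0.552, 0.417 and 0.378, and were treated as pairs in an alternative with a replicate block. Replicates 2 and 3 correlated as well across numbers (0.409 and 0.396), so the check sets apart the mice numbered 1 but not number 2 from number 3.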

Additional observations from a re-analysis of the deposited data

How the results depend on the processing

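The counts of called genes, transcripts, usage changes and events among the sodium channels stayed at 0 under each of the 16, 13, 12 and 14 alternatives tried. The replicate block gave 0 calls too and changed no call, and the neonatal shares of Scn8a and Scn2a, 0.0617 and 0.0269 higher in Prmt9 KO, were higher in 3 of 3 pairs (exact sign-flip test, p = 0.25 for each, the smallest that 3 pairs can give). Computed from estimated counts in place of TPM, the Scn2a difference was 0.00018. The difference in neonatal exon share of Scn8a kept its sign under its 10 alternatives, and the added one with the same flanking splice sites, chosen after the data were seen, gave 0.0572. Of 16 alternatives, 5 turned the sign of the uncalled fold change for Scn1a and Scn8a, 3 for Scn3a, 2 for Scn2a and Scn2b, and 1 for Scn3b, Scn4b and Scn9a, and the cause was not tested. With limma on log2(TPM + 1) and log2(TPM + 0.1), Scn1a was at 0.10 and 0.12 and Scn8a at 0.0825 and 0.0845. With both mice numbered 1 left out, Scn2a, Scn3a, Scn9a and Scn3b were at −0.0789, −0.0558, −0.0333 and −0.0106. Leaving out 1 mouse at a time gave log2 fold changes of −0.34 to 0.0889 for Scn1a, −0.10 to 0.16 for Scn2a, −0.0026 to 0.11 for Scn3a, −0.22 to 0.11 for Scn8a, −0.50 to 0.067 for Scn2b and −0.65 to 0.065 for Scn4b, whereas Scn9a (0.1551 to 0.6204) and Scn3b (0.0125 to 0.0697) kept their sign. The Scn3a share of alpha subunit TPM, as a fraction, differed by −0.0015 to 0.0114 without 1 mouse and by −0.0015 with protein-coding transcripts only. The neonatal shares differed by −0.0106 to 0.0621 in Scn2a, −0.0391 to 0.0083 in Scn3a and −0.0037 to 0.0793 in Scn9a without 1 mouse. Depth was lowest for Scn9a, with 457 to 1407 counts per mouse, and the other genes had at least 1066. Over all genes, the 23 usage calls became 249 without both mice numbered 1, 143 without WT replicate 1, 52 with a term for these mice, 13 with the replicate block, 4 with limma and 1 with at least 10 counts in every mouse.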
